A study of Homo sapiens and Mus musculus with 61 samples.

Results

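The second guide RNA aimed at HS1, an enhancer site of the human beta-globin locus, was set against the non-targeting guide sgGal4 in CAPTURE-ChIP-seq of K562 cells. All 300 bp regions of the authors' table for this pair were taken, which gave 9237 of the 91133 distinct regions in the 17 tables of the study, and 6 of its 61 samples. In this assay a catalytically inactive Cas9 (dCas9) that carries biotin is led to DNA by a guide RNA, pulled down on streptavidin beads and located by sequencing of the DNA that comes with it. The sgHS1-sg2 group was 2 libraries of K562 cells expressing biotinylated dCas9 and the guide sgHS1-sg2. The sgGal4 group was 4 libraries of K562 cells with the same dCas9 and sgGal4, which has no intended human target. K562 is a human leukaemia line that transcribes embryonic and fetal globin genes. The labels give no treatment or time, and do not say whether a replicate was a separate culture or how the cells of a guide were derived, so p-values measure only the spread between these libraries, which may be technical.

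HS1 is a DNase I hypersensitive site of the locus control region, the group of distal enhancers that drives the genes of the beta-globin cluster, and it is the site of that region nearest to the embryonic gene HBE1. Erythroid factors such as GATA1 and TAL1 are known to occupy hypersensitive sites of this region. Cas9 recognises its target through base pairing with the guide and through an NGG motif beside it, and the bases nearest to that motif are the ones on which brief binding at other places mainly depends.

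The sequence of the region over HS1 is shown first, because the main result concerns it. It lies at chr11:5297121-5297420 (hg19), 6095 bp from the nearest start of a protein-coding transcript of HBE1, in introns of long transcript models of HBE1 and HBG2 (the fetal gamma-globin gene). It was the only region that the authors' table tagged as the on-target site of HS1. Letters are from GRCh37, plus strand, and capitals mark matches to the GATA motif.
HS1: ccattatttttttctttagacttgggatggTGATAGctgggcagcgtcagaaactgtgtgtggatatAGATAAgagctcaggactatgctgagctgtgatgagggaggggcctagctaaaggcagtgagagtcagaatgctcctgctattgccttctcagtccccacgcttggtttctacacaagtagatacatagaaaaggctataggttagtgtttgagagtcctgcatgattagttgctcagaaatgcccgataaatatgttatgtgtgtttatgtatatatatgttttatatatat
The GATA motif was searched on both strands as GATA with A or T before it and A or G after it. There were 2 matches, at positions 31 to 36 and 68 to 73 counted from the left end, and 8.23% of the 9237 regions held at least as many. The region held no match to the E-box CANNTG, which 70.6% of all regions hold, nor to the NF-E2 motif TGANTCA, found in 7.51%, nor to the CACCC motif CCNCACCC, found in 18.0%. Its GC content was 41.0% and it held 3 CG pairs, against a median GC content of 59.7% over all regions. A match is only a string of letters, and the sequence of sgHS1-sg2 itself was not used here.

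With the second HS1 guide, dCas9 signal at HS1 was far above that at any other listed region. In sgHS1-sg2 libraries the HS1 region held 2389 and 1010 recovered reads, against 2, 5, 0 and 0 reads in sgGal4 libraries. Reads were recovered from the deposited log2 levels, which lie on a line in log2(whole number). The sgHS1-sg2 libraries therefore stood apart from all 4 sgGal4 libraries with no overlap. The share of all reads in listed regions that fell in HS1 was 2.05% (95% Clopper-Pearson interval 1.97% to 2.13%) and 1.46% (1.37% to 1.55%) in sgHS1-sg2 libraries. In sgGal4 libraries it was 0.00339% and 0.00470% in replicates 1 and 2, and 0 in replicates 3 and 4, where a floor of 3 reads corresponds to 0.0266% and 0.0273% and the same intervals reach up to 0.0327% and 0.0335%. Summed over the libraries of a group, the share was 490.4 times higher with sgHS1-sg2 than with sgGal4 (interval 237.8 to 1221). These intervals cover counting error only.

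On the scale of the deposited levels, HS1 stood at 11.22 and 10.54 in sgHS1-sg2 libraries, against 2.35, 2.45, 3.22 and 3.15 in sgGal4 libraries. The means were 10.88 ± 0.48 (SD, n = 2) for sgHS1-sg2 and 2.79 ± 0.46 (SD, n = 4) for sgGal4. The authors' levels put a region with 0 reads at 3.22 and 3.15 in sgGal4 replicates 3 and 4, above the level of 2 and 5 reads in replicates 1 and 2. The log2 ratio, taken here as the log2 of the mean linear sgHS1-sg2 level over the mean linear sgGal4 level, was 8.07 and is therefore not a ratio of reads. It ranked 1 of 9237, and the next region reached 4.06. limma's moderated test gave a difference of mean log2 levels of 8.09 (SE 0.52) and an adjusted p of 0.000424 over all 9237 regions. The exact two-sided permutation test of the 6 levels gave p = 0.133. This is the smallest value possible when the one-sided p over 15 splits of 2 against 4 libraries is doubled, as here. Without sgHS1-sg2 replicate 1 the log2 ratio was 7.69 and the adjusted limma p was 0.0641.

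By reads, HS1 was also the first region within each sgHS1-sg2 library. In replicate 1 it held 7.96 times the reads of the next region, which lay near SKOR1 and held 300 reads. In replicate 2 it held 8.42 times the reads of the next, near GFOD2, with 120. The SKOR1 region shows how far libraries of 1 group could differ, since it held 300 and 4 reads in sgHS1-sg2 libraries, against 6, 5, 123 and 26 in sgGal4 libraries, and its log2 ratio was 0.32. HS1 ranked 6904 and 6673 of 9237 by reads in sgGal4 replicates 1 and 2.

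**Figure D1:**
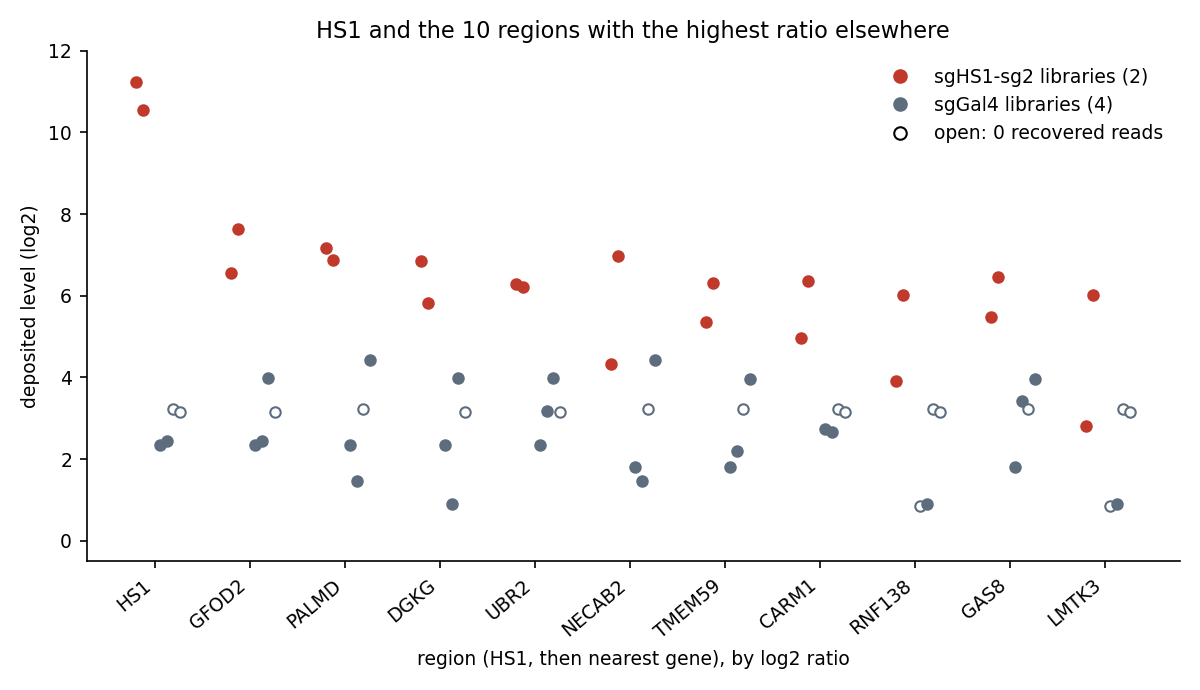
Deposited log2 level of HS1 and of the 10 other regions with the highest log2 ratio, 1 point per library, with 2 sgHS1-sg2 libraries left of 4 sgGal4 libraries in each column. Open points are libraries with 0 recovered reads. HS1 lies at 11.22 and 10.54 in sgHS1-sg2 libraries and at most at 3.22 in sgGal4 libraries, while no other region shown exceeds a level of 7.64.

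No other listed region lay within 1 kb of HS1, so the share of reads within 1 kb was the same 2.05% and 1.46% in the sgHS1-sg2 libraries. The table lists 1 more region of the beta-globin cluster, at chr11:5273371-5273670, between the paired fetal genes HBG1 and HBG2 and 23750 bp from HS1. That region held 4 and 0 reads in sgHS1-sg2 libraries, against 7, 14, 0 and 2 reads in sgGal4 libraries, and its sgHS1-sg2 levels lay below every sgGal4 level although the reads overlapped. Its log2 ratio was -2.01, with an adjusted limma p of 0.0417, and this call was lost without any 1 of the 6 libraries (adjusted p 0.0526 to 0.336). The same region is in 16 of the 17 tables, where its log2 ratios ran from -2.79 to 0.14. These tables share their sgGal4 libraries.

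Other guides for the same element were listed on neighbouring sequence. No region in the other 16 tables overlapped the HS1 region of sgHS1-sg2 by 150 bp or more, and 2 overlapped it at all. With the first HS1 guide, sgHS1, the region at chr11:5296853-5297152 shares 32 bp with it and had a log2 ratio of 5.64, rank 1 of 4217. Its 2 sgHS1 libraries held 83 reads, or 0.333%, and 861 reads, or 7.20%, of the reads in the regions of that table. In the libraries labelled sgHS1-5, the region at chr11:5296876-5297175 shares 55 bp with it and had a log2 ratio of 6.98, rank 3 of 16890. There the share of reads ran from 0.421% to 1.91% over 6 libraries. The 2 libraries of sgHS1-sg2, at 2.05% and 1.46%, thus differed less from each other than the 2 libraries of sgHS1. Tables were normalised separately, list different regions and share sgGal4 libraries, so no test was made across them.

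Outside HS1, 48 further regions were raised with sgHS1-sg2, that is, reached a log2 ratio of 1 or more at an adjusted limma p below 0.05. With HS1 this made 49 regions, or 0.530% of those tested, and 1099 regions, or 11.9%, were lowered by the mirrored rule. In 1523 regions (16.5%) both sgHS1-sg2 levels lay above all 4 sgGal4 levels, and in 2199 (23.8%) both lay below. How the authors chose the regions of a table is not given in the sources used here. Levels of sgHS1-sg2 replicate 1 went with those of sgHS1-sg2 replicate 2 across regions (Spearman's rho 0.54), while each of the 8 pairs of an sgHS1-sg2 and an sgGal4 library had a rho between -0.29 and -0.0016. Among sgGal4 libraries, replicates 1 and 2 had a rho of 0.80 and the other pairs 0.14 to 0.20. All 113 regions with 0 reads in every sgGal4 library were listed for sgHS1-sg2 alone. Of the 220 with 0 reads in both sgHS1-sg2 libraries, 215 were listed in all 17 tables. Listing thus went with the reads of both groups. The no-overlap counts and rho values therefore describe the listed regions, not the libraries as such, and carry no test.

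**Figure D2:**
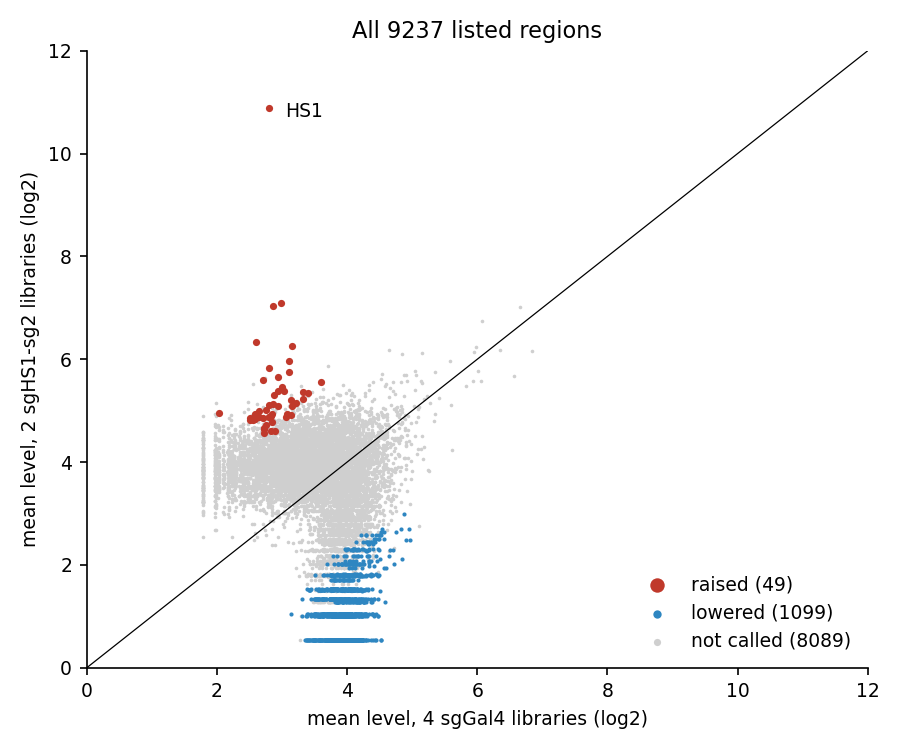
Mean deposited log2 level of each of the 9237 listed regions in the 2 sgHS1-sg2 libraries (vertical) and the 4 sgGal4 libraries (horizontal), with 49 raised, 1099 lowered and 8089 other regions. The line marks equal levels. HS1, at 10.88 in sgHS1-sg2 and 2.79 in sgGal4 libraries, is apart from all other points.

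The regions next after HS1 lay far below it, and none of their calls held on recovered reads or after centring by GC content. With a pseudocount of 1, the 3 highest log2 ratios were not smaller on recovered reads (4.45 near GFOD2, 3.92 near PALMD and 3.90 near DGKG). With a pseudocount of 5 they were smaller, at 3.45, 3.11 and 2.815. The region with the highest ratio lay 702 bp from the start of GFOD2, at chr16:67753795-67754094. It held 93 and 120 reads in sgHS1-sg2 libraries, against 2, 5, 1 and 0 in sgGal4 libraries, with a log2 ratio of 4.06 (limma SE 0.62, adjusted p 0.0103). A region 72560 bp from PALMD, which encodes the cytosolic protein palmdelphin, held 144 and 69 reads in sgHS1-sg2 libraries, against 2, 2, 0 and 2 in sgGal4 libraries. In both regions every sgHS1-sg2 library was high and every sgGal4 library low. The PALMD region had a log2 ratio of 3.76 (SE 0.76, adjusted limma p 0.0115). A region 67665 bp from DGKG, the gene of a diacylglycerol kinase, held 115 and 31 reads in sgHS1-sg2 libraries, against 2, 1, 1 and 0 in sgGal4 libraries, with a log2 ratio of 3.45 (SE 0.81, adjusted limma p 0.0190). The groups again did not overlap, although the sgHS1-sg2 libraries differed more from each other here.

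Of the other 7 regions among the 10 highest, 5 also had groups whose levels did not overlap. They lay near UBR2 (a ubiquitin ligase gene, log2 ratio 2.98), TMEM59 (2.87), CARM1 (an arginine methyltransferase gene, 2.86), RNF138 (a ubiquitin ligase gene, 2.86) and GAS8 (a gene of motile cilia, 2.76). Of these, RNF138 did not pass the test (adjusted limma p 0.0634). The remaining pair, near NECAB2 at 2.96 and LMTK3 at 2.71, had overlapping levels and did not pass either (adjusted limma p 0.0831 and 0.167). Their reads did not overlap. In NECAB2 they were 19 and 73 in sgHS1-sg2 libraries, against 1, 2, 0 and 2 in sgGal4 libraries. In LMTK3 the sgHS1-sg2 reads were 6 and 36, against 0, 1, 0 and 0 in sgGal4 libraries, so the ratio rested on replicate 2. Over all 48 regions raised outside HS1, replicate 1 of sgHS1-sg2 held 17 to 144 reads and replicate 2 held 11 to 120, against at most 14 in any sgGal4 library. In 31 of the 48, sgGal4 replicates 3 and 4 both held 0 reads, so those ratios depend in part on the level given to 0 reads. Together these 48 regions took 1.42% and 1.87% of the reads in sgHS1-sg2 libraries, less than HS1 alone in replicate 1 and more in replicate 2.

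The other raised regions were searched for the letters of possible guide targets in HS1. Within 30 bp of the HS1 region or inside it, 29 different stretches of 20 bases stand before an NGG on either strand. The last 8 bases of any of them, followed by NGG, were found in 1 of the 48 other raised regions, in none of the 10 regions with the highest ratio, and in 2.10% of all other regions. With the last 10 bases, 0 of the 48 and 0.162% of all other regions had a match. Which of the 29 stretches sgHS1-sg2 uses was not known here, and the absence of these letters says nothing about weaker pairing. The regions near PALMD and DGKG are printed as the 2 farthest from a gene start among the 10 highest, plus strand, hg19, at chr1:100038960-100039259 and chr3:186147539-186147838, with GATA matches in capitals.
PALMD: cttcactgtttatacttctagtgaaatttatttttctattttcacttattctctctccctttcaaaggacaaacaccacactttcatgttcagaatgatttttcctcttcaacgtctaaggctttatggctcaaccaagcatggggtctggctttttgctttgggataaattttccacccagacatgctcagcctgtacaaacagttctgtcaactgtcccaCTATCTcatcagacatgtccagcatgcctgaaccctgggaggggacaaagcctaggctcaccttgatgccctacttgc
DGKG: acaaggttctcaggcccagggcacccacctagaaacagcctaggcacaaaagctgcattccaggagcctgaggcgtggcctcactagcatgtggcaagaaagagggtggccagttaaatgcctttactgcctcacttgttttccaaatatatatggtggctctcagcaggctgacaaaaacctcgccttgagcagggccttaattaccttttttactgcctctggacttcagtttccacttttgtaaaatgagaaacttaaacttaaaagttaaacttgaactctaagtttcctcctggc
The PALMD region held 1 GATA match, on the minus strand, and 1 E-box, and the DGKG region held no GATA match and 2 E-boxes.

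The raised and lowered regions differed in where they lie in genes and in base composition. Of the 48 regions raised outside HS1, 35 lay within 1 kb of the start of a protein-coding transcript, 17 of them within 100 bp, and 9 lay farther than 10 kb. Of all 9237 regions, 40.4% lay within 1 kb of a start. Among the 1099 lowered regions, 27 did, or 2.46%, while 583 (53.0%) were intergenic and 438 (39.9%) intronic, against 33.3% and 20.3% of all regions. The median GC content was 69.7% in the 48 raised regions and 36.7% in the lowered ones. The CACCC motif was found in 51.0% of the 49 raised and 3.91% of the lowered regions, against 18.0% of all regions. At least 1 GATA match was found in 8.16% of raised and 54.9% of lowered regions, against 27.1% of all regions. The motif shares were not set against regions of like GC content, so motif and base composition cannot be told apart here. Members of these groups were chosen by their ratio, so the counts describe them and carry no test.

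A GC-rich region raised near a gene start is shown as an example, with CG pairs in capitals, plus strand, hg19. The region 324 bp from the start of CARM1, at chr19:10981756-10982055, held 41 CG pairs at a GC content of 76.7%.
CARM1: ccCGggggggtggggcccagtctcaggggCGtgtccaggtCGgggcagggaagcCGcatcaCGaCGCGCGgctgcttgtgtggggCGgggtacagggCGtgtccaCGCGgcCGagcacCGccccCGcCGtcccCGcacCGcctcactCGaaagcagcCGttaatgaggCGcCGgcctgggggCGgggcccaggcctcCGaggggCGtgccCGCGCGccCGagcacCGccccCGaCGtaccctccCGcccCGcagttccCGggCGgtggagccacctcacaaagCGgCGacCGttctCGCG
CARM1 held 30 and 47 reads in sgHS1-sg2 libraries, against 3, 6, 0 and 0 in sgGal4 libraries. The groups did not overlap, and its log2 ratio was 2.86 (adjusted limma p 0.0148).

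Base composition moved with the ratio over the whole table. Spearman's rho between the GC content of a region and its log2 ratio was 0.70 over 9237 regions, 0.41 among those within 1 kb of a start and 0.67 among the rest. These are descriptions across regions of the same 6 libraries. The median log2 ratio was -2.61 below 35% GC, -1.66 from 35% to 45%, -0.27 from 45% to 55%, 0.23 from 55% to 65%, 0.66 from 65% to 75% and 1.01 at 75% or more. It thus went up in every step of GC content. Regions of at least 65% GC took 43.9% and 53.4% of the reads in sgHS1-sg2 libraries, against 26.3%, 26.3%, 28.8% and 28.2% in sgGal4 libraries. Regions below 45% GC took 9.93% and 6.65% in sgHS1-sg2 libraries, against 25.6%, 24.1%, 25.8% and 25.7% in sgGal4 libraries. Over all regions the 4 sgGal4 libraries were alike in this, whatever their depth, and both sgHS1-sg2 libraries lay outside their range. Among the 5999 regions listed for sgHS1-sg2 alone, the rho was 0.43. Of the reads there, regions below 45% GC took 7.20% and 4.55% in sgHS1-sg2 libraries, against 5.12%, 5.19%, 8.33% and 7.06% in sgGal4 libraries. These shares overlapped, with HS1 itself counted among them. At 65% GC or more, shares were 49.6% and 58.6% in sgHS1-sg2 libraries, against 43.3% to 44.9% in sgGal4 libraries. Over the 17 tables, the rho across all regions of a table ran from 0.11 to 0.76, and that of sgHS1-sg2 ranked 5.

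**Figure D3:**
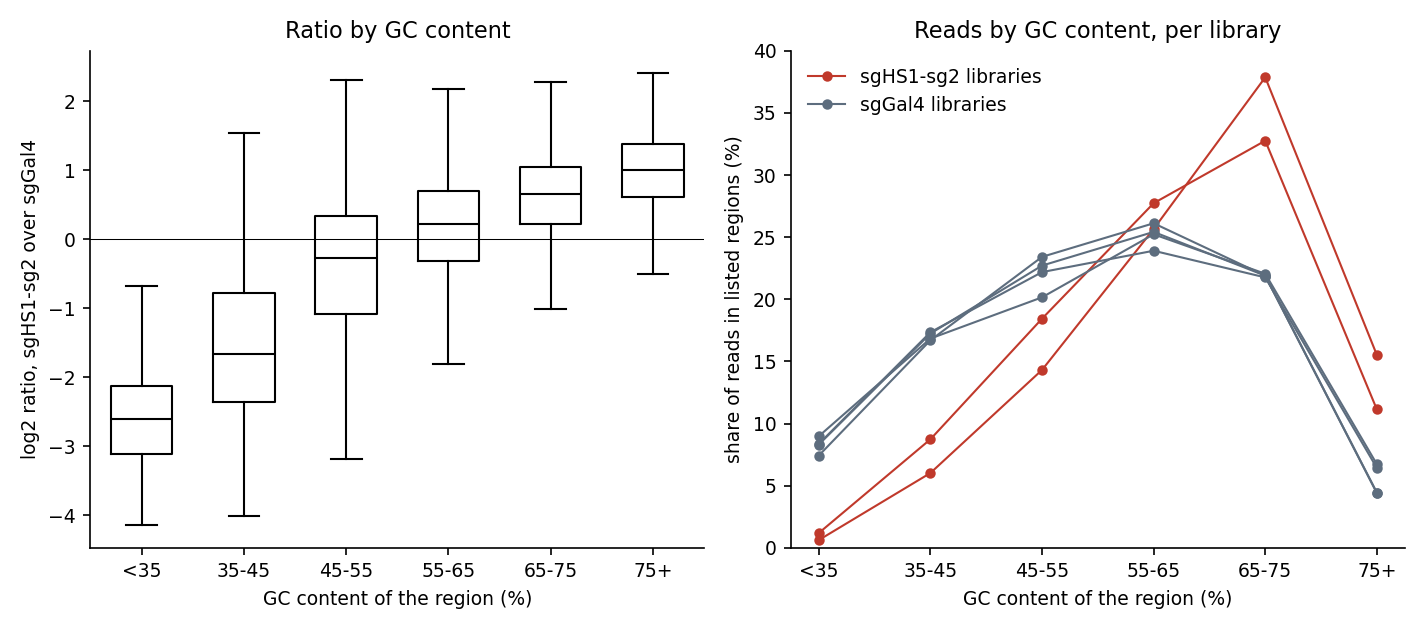
Left, log2 ratio of sgHS1-sg2 over sgGal4 by GC content of the 9237 regions, with boxes from the lower to the upper quartile, lines at the median and whiskers to the last region within 1.5 box lengths. Right, share of each library's reads by the same classes, with 1 line per library for 2 sgHS1-sg2 and 4 sgGal4 libraries. The median log2 ratio runs from -2.61 below 35% GC to 1.01 at 75% or more.

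HS1 did not follow this pattern. With a GC content of 41.0% it fell in a class whose median log2 ratio was -1.66, and its own was 8.07. When the levels of each library were centred on their median within 20 bins of GC content, an alternative chosen after seeing the data, the log2 ratio of HS1 was 9.52 with an adjusted limma p of 7.33e-05. Under that centring none of the 48 other raised regions and none of the 1099 lowered regions was called. At an unadjusted limma p below 0.05, 428 and 717 regions were past the same log2 ratio. The median log2 ratio of the 48 was 1.52 (lowest 0.34). That of the 1099 lowered regions was -0.75, and 873 of them stayed below 0. The regions near PALMD, GFOD2 and DGKG kept log2 ratios of 4.45, 4.06 and 3.90, each with an adjusted limma p of 0.107. The part of base composition in the calls was not tested further.

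The ratio also moved with the number of tables that list a region at the same coordinates. The 5999 regions listed for sgHS1-sg2 alone had a median log2 ratio of 0.59, and the 1661 listed in all 17 tables had -2.21. All 49 raised regions were among those 5999, and 962 of the 1099 lowered regions were among those 1661. Counting any overlap of 150 bp or more in its place, 42 of the 48 raised regions outside HS1 (87.5%) had a counterpart in at least 1 other table, near the 84.7% of all regions. Regions listed in all 17 tables took 4.13% and 3.31% of the reads in sgHS1-sg2 libraries, against 24.6%, 22.8%, 20.8% and 22.0% in sgGal4 libraries. Regions within 1 kb of a gene start took 47.8% and 55.2% in sgHS1-sg2 libraries, against 29.1%, 29.3%, 33.9% and 33.3% in sgGal4 libraries. In both classes the groups of libraries were apart with no overlap. Listing was not independent of the reads, however. The 113 regions with 0 reads in all sgGal4 libraries were all listed for sgHS1-sg2 alone. Of the 220 regions with 0 reads in both sgHS1-sg2 libraries, 215 were listed in all 17 tables. Ratios and shares of reads by number of tables thus describe the regions and carry no test.

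**Figure D4:**
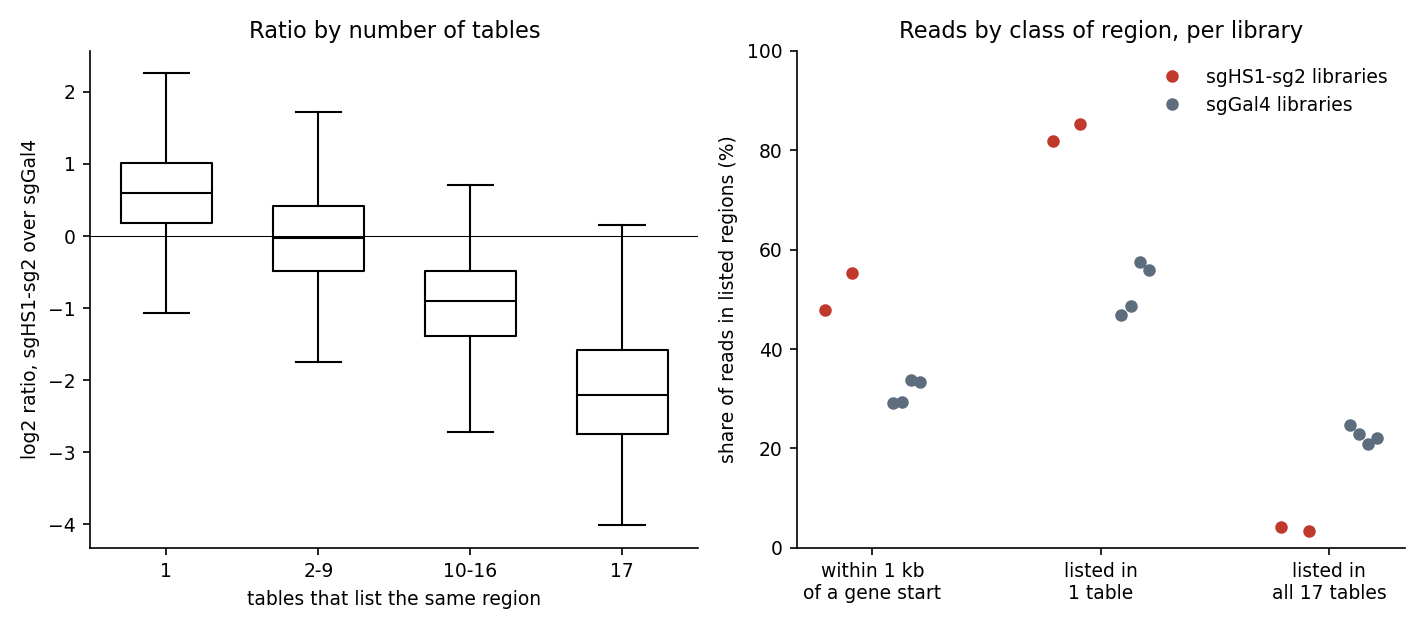
Left, log2 ratio of sgHS1-sg2 over sgGal4 by the number of the 17 tables that list the same region (boxes as quartiles, lines as medians, whiskers to the last region within 1.5 box lengths). Right, share of reads in regions within 1 kb of a gene start, in regions listed in 1 table and in regions listed in all 17 tables, 1 point per library, with sgHS1-sg2 left of sgGal4. The median log2 ratio is 0.59 for regions listed in 1 table and -2.21 for those listed in all 17.

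The lowest regions had no reads with sgHS1-sg2. Both sgHS1-sg2 libraries held 0 reads in 219 of the 1099 lowered regions, so their ratios depend on the level that the authors' scale gives to 0 reads. The 4 lowest log2 ratios were -4.14 near NBPF16, -4.01 near OR4E1, -3.96 near GLUL and -3.90 near KCNT2. All 4 held 0 reads in both sgHS1-sg2 libraries and together 28 to 68 reads in the 4 sgGal4 libraries. With a floor of 3 reads over both sgHS1-sg2 libraries, the share of reads with sgHS1-sg2 was at least 22.4-fold lower near OR4E1 and at least 9.24-fold lower near KCNT2. Among the 5 smallest p-values outside the cluster, an adjusted limma p of 0.0103 each belonged to lowered regions near AKAIN1, ASF1A (a histone chaperone gene), LINC02218 and GLUL (the gene of glutamine synthetase). The region near AKAIN1 held 1 and 0 reads in sgHS1-sg2 libraries, against 14, 19, 2 and 2 in sgGal4 libraries.

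Genes of erythroid control gave few listed regions. In the fit of all 6 libraries without a covariate, calls among them were near the shares over all regions. Of 37 genes in 4 lists, 14 had a listed region within 10 kb of a start, 15 regions in all. The lists cover the alpha-globin genes, the GATA and TAL1 complex, globin switching and erythroid regulators, and architectural and cohesin genes. None of the 15 was raised and 2 were lowered, against 0.530% and 11.9% of all regions, and their median log2 ratio was 0.79, against 0.18 over all regions. At these shares a count of 0 raised among 15 says nothing about the genes. After centring within GC bins the medians of 0.79 and 0.18 became 0.31 and 0.0091. Against sgGal4 replicates 1 and 2 only, 7 of the 15 were raised and 2 lowered, where 25.3% and 16.3% of all regions were, and against replicates 3 and 4 only none was called (0.0758% and 7.19% of all regions). The 1 region of the alpha-globin genes, near HBQ1 (theta-globin), held 22 and 13 reads in sgHS1-sg2 libraries, against 3, 1, 1 and 3 in sgGal4 libraries. Its log2 ratio was 0.92 and did not pass the test (adjusted limma p 0.308), while it was 2.51 against sgGal4 replicates 1 and 2 only (adjusted limma p 0.00866) and 0.18 against replicates 3 and 4 only (adjusted limma p 0.855).

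Within the GATA and TAL1 complex, 2 of 4 listed regions were lowered, those of ZFPM1 and GATA2, where 11.9% of all regions were. The region near GFI1B was not called (log2 ratio 0.31, adjusted limma p 0.632). ZFPM1 encodes FOG1, a cofactor of GATA1, and its region held 3 and 0 reads in sgHS1-sg2 libraries, against 7, 18, 0 and 1 in sgGal4 libraries (log2 ratio -2.16, adjusted limma p 0.0244). GATA2 encodes a GATA factor of blood progenitors, and its region held 4 and 0 reads in sgHS1-sg2 libraries, against 12, 15, 1 and 0 in sgGal4 libraries (log2 ratio -2.06, adjusted limma p 0.0376). These regions are listed in 16 and 17 of the tables. The ZFPM1 call was lost without sgGal4 replicate 1 or 4 or either sgHS1-sg2 library (adjusted limma p 0.0519 to 0.185), and the GATA2 call without any library other than sgGal4 replicate 4 (adjusted limma p 0.0595 to 0.309). Both were also lost with a variance trend, against sgGal4 replicates 3 and 4 only, on recovered reads and after centring within GC bins. The reads of both regions overlapped between the groups, since an sgGal4 library held 0. The region near GATA1, the master regulator of erythroid genes, had 10 and 9 reads in sgHS1-sg2 libraries, against 0 reads in all 4 sgGal4 libraries, with a log2 ratio of 1.5 and an adjusted limma p of 0.194. Its log2 ratio was 3.42 against sgGal4 replicates 1 and 2 only (adjusted limma p 0.00307) and 0.71 against replicates 3 and 4 only (adjusted limma p 0.506). These ratios differ only through the level given to 0 reads, which was 0.86, -0.08, 3.22 and 3.15 in sgGal4 replicates 1 to 4.

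The other lists held no called region, at 0.530% raised and 11.9% lowered over all regions. The switching and erythroid regulators had 6 regions with log2 ratios from -0.03 to 1.20. The lowest lay 5699 bp from BACH1 (a repressor that pairs with small MAF proteins). The highest lay at the start of NR2C1 (an orphan nuclear receptor of the direct repeat binding complex). A second region, 2344 bp from BACH1, had a log2 ratio of 0.43 (adjusted limma p 0.494). It was 2.08 against sgGal4 replicates 1 and 2 only (adjusted limma p 0.0185) and -0.32 against replicates 3 and 4 only (adjusted limma p 0.742). The architectural list had 4 regions with log2 ratios from 0.79, at SMC1A (a cohesin subunit), to 1.54, near STAG1 (another cohesin subunit), and the regions of CTCF (an insulator protein) and RAD21 (a cohesin subunit) lay at 1.39 and 1.44. Against sgGal4 replicates 1 and 2 only, STAG1 was raised with a log2 ratio of 2.67 (adjusted limma p 0.00465), as were CTCF at 2.03 and RAD21 at 3.75 (adjusted limma p 0.0353 and 0.00307). SMC1A, at 0.94, was not (adjusted limma p 0.278), and 25.3% of all regions were raised in that comparison. Against replicates 3 and 4 only, STAG1 lay at 0.91, CTCF at 0.95 and RAD21 at 0.59. None of these was called there (adjusted limma p 0.302, 0.572 and 0.559). In sgGal4 replicates 1 to 4, STAG1 held 1, 1, 0 and 0 reads, CTCF 4, 6, 0 and 2, and RAD21 0, 0, 1 and 0. Their ratios thus depend in part on the level given to 0 reads. The intervals around ABL1 and BCR, which are fused and amplified in K562, with 0.5 Mb on either side, held 9 and 8 regions. None of these was called, with log2 ratios from -1.17 to 1.56 around ABL1 and from -2.32 to 1.20 around BCR, where 0.530% of all regions were raised and 11.9% lowered. The highest, near ABL1, was 2.87 against sgGal4 replicates 1 and 2 only (adjusted limma p 0.00341). It was 0.89 against replicates 3 and 4 only (adjusted limma p 0.311). That region held 0, 2, 0 and 0 reads in sgGal4 replicates 1 to 4, so these ratios too depend in part on the level given to 0 reads.

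How many regions counted as raised or lowered depended on the scale and on the sgGal4 libraries used, while HS1 kept rank 1 by log2 ratio in each of the 16 alternative analyses. On recovered reads scaled to the library total, with a pseudocount of 1, HS1 was the only raised region (log2 ratio 8.92, adjusted limma p 0.0340) and none was lowered, with 900 and 998 regions past the same log2 ratio at an unadjusted p below 0.05. The log2 ratios kept their direction and about their size there, with a median of 2.77 in the 48 other raised regions (2.19 as reported) and -2.56 in the 1099 lowered ones (-2.59 as reported), and all 49 stayed above 0 and all 1099 below 0. With a pseudocount of 5 or with median scaling the counts were the same, 1 and 0, and with a pseudocount of 5 the median of the 48 was 1.75 and that of the 1099 was -1.26. The sgHS1-sg2 libraries held 116514 and 69266 reads in listed regions, against 58926, 106444, 11276 and 10997 in sgGal4 replicates 1 to 4. In sgGal4 replicates 3 and 4, 37.2% and 35.7% of regions had 0 reads. Against sgGal4 replicates 1 and 2 only, 2339 regions (25.3%) were raised and 1509 (16.3%) lowered, and against replicates 3 and 4 only, 7 (0.0758%) and 664 (7.19%). All 49 raised regions were among the 2339, and 6 of them among the 7. With replicates 1 and 2 only, the highest log2 ratio after HS1 was 5.40, in an intron of PGK1 (a gene of glycolysis) close to its start, which held 94 and 11 reads in sgHS1-sg2 libraries, against 0, 0, 7 and 1 in sgGal4 libraries.

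**Figure D5:**
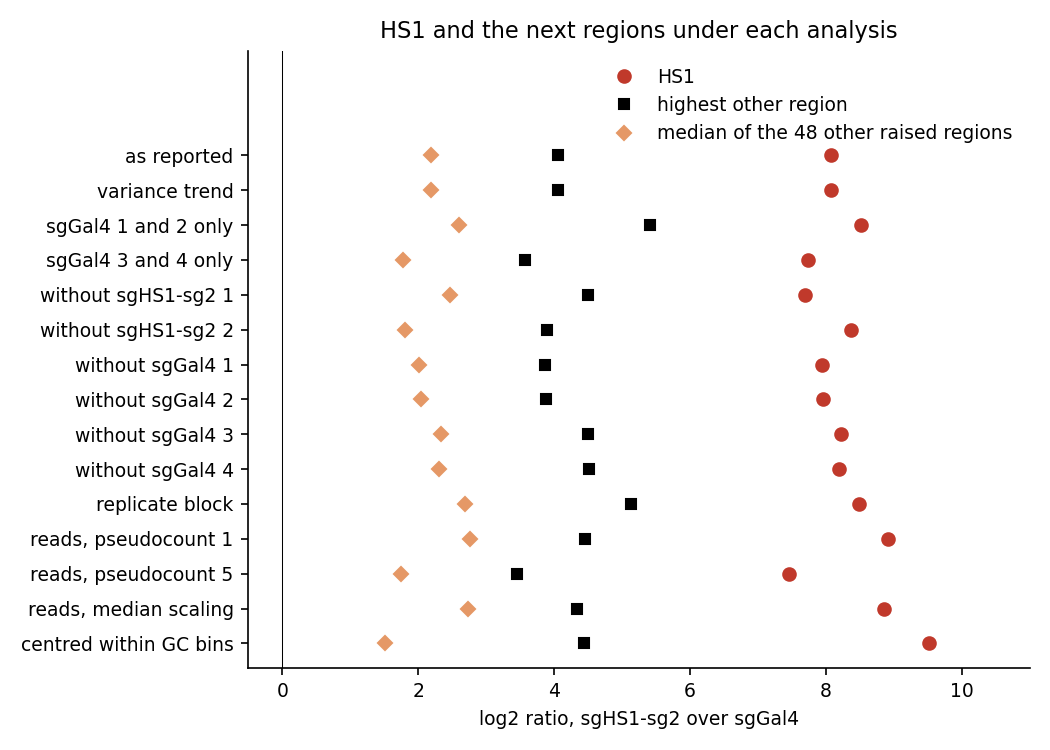
Log2 ratio of sgHS1-sg2 over sgGal4 for HS1 (circles), for the highest other region (squares) and as the median of the 48 other raised regions (diamonds) as reported (top) and under 14 other analyses. HS1 lies between 7.45 and 9.52 in all of them and the highest other region between 3.45 and 5.40.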

How the data were processed

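dCas9-bound DNA was measured by sequencing in 2 sgHS1-sg2 and 4 sgGal4 libraries, grouped by the sample titles. The authors used Bowtie 1.0.0, Picard and hg19, per the submitters' processing notes, and kept uniquely aligned reads, per the labels' protocols. The peak caller is not given in the sources used here, nor is the normalisation. Each table that the authors deposited holds log2 levels, as judged from the values, per library over 300 bp regions, on a scale of its own.

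The log2 ratio was recomputed from these levels. In every column 100% of values came out as whole reads (within 0.01, or within 0.01% where larger). Shares of reads are over listed regions only, which held 10997 to 116514 reads per library, not over its whole depth. limma 3.58.1 in R 4.3.3 was run on the log2 levels of the 6 libraries with no covariate, no pseudocount and no filter, and Benjamini-Hochberg adjustment over all 9237 regions. The fit was tested on simulated data.

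Coordinates, which count from 1, were read from GRCh37, and starts from protein-coding transcripts of GENCODE 44 lifted to it. A region was named by its nearest start. Named regions were HS1, other regions of the cluster, the 10 highest ratios outside it, the 5 lowest ratios, the 5 smallest p-values outside it, the highest and the lowest of each gene list, and the highest of the amplified intervals. SKOR1, PGK1, GATA2, GFI1B, CTCF, RAD21 and the second region near BACH1 were named after their values were seen. The comparison, the lists and the tests were chosen with earlier results of these data known. Alternatives were the scale of the values, pseudocounts of 1 and 5, scaling, a filter at 10 reads, the variance model, stricter limits, the sgGal4 libraries used, a replicate block, each library left out and, chosen after seeing the data, centring within GC bins. Sequences of the guides were not used here, and 1 lowered region that this rule names is not reported here.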

Additional observations from a re-analysis of the deposited data

How the results depend on the processing

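HS1 kept its direction, rank 1 and an adjusted limma p below 0.05 in all 16 analyses bar the one without sgHS1-sg2 replicate 1. Its log2 ratio was 7.69 to 8.38 over the analyses that left out 1 library each. The counts of raised and lowered regions, 49 and 1099, did not hold. They were 1 and 0 on recovered reads with a pseudocount of 1, a pseudocount of 5 or median scaling, and also after centring within GC bins, under the stricter rule (log2 ratio of at least 2 and adjusted p below 0.01) and at a limma p of at most 1e-05. The raised count was 96 with a variance trend, and 2339 against sgGal4 replicates 1 and 2 only. Against sgGal4 replicates 3 and 4 only, 7 regions were raised and 664 lowered. Leaving out 1 library gave 0 to 40 raised and 0 to 1012 lowered regions. Without sgHS1-sg2 replicate 1 both counts were 0, with 465 and 1387 regions past the log2 ratio at an unadjusted limma p below 0.05, and without sgHS1-sg2 replicate 2 they were 2 and 552. Without sgGal4 replicates 1, 2, 3 and 4 in turn, 9, 18, 40 and 39 regions were raised and 654, 1012, 734 and 801 lowered. Analyses without a library have fewer samples by construction, and for the other settings the cause was not tested. The share of raised among called regions was 4.27% as reported, 60.8% against sgGal4 replicates 1 and 2 only and 1.04% against replicates 3 and 4 only, and the median log2 ratio of all regions was 0.18, 0.54 and -0.11 in these.

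The region between HBG1 and HBG2 lost its call after centring within GC bins (log2 ratio -0.51, adjusted limma p 0.716), on recovered reads with a pseudocount of 1 (-1.90), a pseudocount of 5 (-0.95) or median scaling (-2.02), against sgGal4 replicates 3 and 4 only (-2.12), with a variance trend (-2.01) and without any 1 library (-2.76 to -1.52). The region 5699 bp from BACH1, at -0.03, changed sign to 0.58 after centring within GC bins, 0.058 as a difference of mean log2 levels, 0.70 against sgGal4 replicates 3 and 4 only, and ran from -0.40 to 0.27 without 1 library each. The region near SMC1A ran from -0.045 to 1.31 without 1 library each, below 0 without sgHS1-sg2 replicate 2. With any overlap counted, 2 other tables listed HS1, against 0 at 150 bp.

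The groups share only replicate numbers 1 and 2, whose deviations from the group means correlated at 0.05 across regions for replicate 1, so the numbers were not taken to pair libraries. With the replicate block, which leaves sgGal4 replicates 3 and 4 without a partner, 2536 regions were raised and 1627 lowered, and HS1 had a log2 ratio of 8.48. The filter at 10 reads removed no region. The median region held 1 read in sgGal4 replicates 3 and 4, which limits how small a difference could be seen.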

Other observations

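Among the 48 regions raised outside HS1 with sgHS1-sg2 over sgGal4, 10 had a GC content below 60%, and their median log2 ratio was 2.28.

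The median log2 ratio differed by chromosome, with 0.59 over 127 regions of the X chromosome at one end and -0.36 over 134 regions of chromosome 13 at the other. Across the 17 tables, which share their sgGal4 libraries, the 6 highest values of Spearman's rho between GC content and log2 ratio (0.59 to 0.76) all belonged to guides whose names end in sg2, while sgHS2-sg2 had 0.15 and ranked 16.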
